A study of Phaseolus vulgaris with 18 samples.

Results

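The 8 genes described here, of a list of 10, encode 5 enzymes of the porphyrin route that chlorophyll and haem share. They were taken by gene name from a table of 25124 genes of the common bean (Phaseolus vulgaris), where the authors' annotation gives their enzyme names. Glutamyl-tRNA reductase (GluTR) is encoded by Phvul.008G185100, Phvul.009G146100 and Phvul.002G216100, and glutamate-1-semialdehyde aminomutase (GSA-AM) by Phvul.009G118500. Uroporphyrinogen-III synthase (UROS) is encoded by Phvul.009G063100, uroporphyrinogen decarboxylase (UROD) by Phvul.001G248800 and Phvul.005G065500, and coproporphyrinogen III oxidase (CPOX) by Phvul.008G289900. All 8 passed the expression filter, with 236 to 13824 counts in a library. RNA was sequenced from pods of the golden line A18-1, which carries the golden pod trait pv-ye and whose pods turn gold as they mature, and of the green line Renaya, whose pods stay green until they ripen. Each line was sampled at 10, 14 and 18 days after flowering (DAF), with 3 libraries per line and age, and all plants grew untreated in a climate chamber. Since 1 golden and 1 green line were compared, the pod colour trait and any other difference between the lines cannot be told apart.

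Plants build porphyrins in plastids from glutamate carried on a transfer RNA. GluTR reduces it and is the main control point of the route, GSA-AM then makes aminolevulinic acid, and porphobilinogen synthase joins molecules of that acid into a pyrrole. Further on, UROS closes a chain of pyrroles into a ring, and UROD and CPOX trim the ring's side chains towards protoporphyrin. Beyond protoporphyrin, magnesium chelatase leads to chlorophyll and ferrochelatase to haem, so a chloroplast that assembles or repairs its photosystems draws heavily on this route.

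Total counts ran from 48757139 to 74377200 per library. The design text names pod walls, while a label field names leaf. As carpel and pod identity genes, 37 were matched by description, mostly by the family names K-box region and MADS-box or YABBY. Such names do not name an organ, so the levels below do not settle which label is right. Of the 37, 5 to 10 were at 0 in all 3 libraries of a group. Their summed level was 978 to 1401 FPKM in golden libraries and 705 to 1164 FPKM in green libraries. Of the 23 of them that were tested, 3, 4 and 0 were higher in golden pods at 10, 14 and 18 DAF and 2, 4 and 2 were lower. These counts were not far from the shares of all tested genes, 17.1%, 20.4% and 7.99% higher and 15.5%, 21.2% and 6.99% lower. AGAMOUS-like 8 (Phvul.009G203400), for one, stood at 107 ± 17.9, 175 ± 47.5 and 96.2 ± 63.0 FPKM in golden pods at 10, 14 and 18 DAF and at 53.0 ± 13.0, 41.7 ± 11.3 and 58.3 ± 15.2 FPKM in green pods (mean ± SD of 3 libraries, as for all group levels below). The MADS-box gene Phvul.008G190600 stood at 138 ± 22.8, 120 ± 8.47 and 162 ± 59.8 FPKM in golden pods and at 93.6 ± 22.2, 180 ± 23.1 and 207 ± 46.8 FPKM in green pods. FPKM are fragment counts scaled to the length of the transcript and to the mapped fragments of the library, so levels of different genes can be set side by side on that scale. Replicates correlated least in golden pods at 18 DAF, at 0.914 between replicates 1 and 2, on log2 CPM across genes. Markers of green tissue (light-harvesting, photosystem and Rubisco small subunit genes) moved with the line. Of 48 such genes, 22, 43 and 45 were higher in golden pods at 10, 14 and 18 DAF and 0 were lower. Over all tested genes 17.1%, 20.4% and 7.99% were higher, so each of these counts lay above its share. Their summed level was 33396 to 42170, 34536 to 42288 and 29185 to 63901 FPKM in golden libraries at the 3 ages, against 23321 to 24118, 15950 to 18446 and 11217 to 22315 FPKM in green libraries, and none of the 48 was at 0 in all 3 libraries of a group. Their part in the differences below was not tested. In bulk RNA, fewer cells of a type and less RNA per cell cannot be told apart.

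Calls among the shared porphyrin genes at 14 and 18 DAF were for higher levels in golden pods, with GluTR Phvul.008G185100 furthest apart between the lines. At 14 DAF, 6 of the 8 genes were called higher in golden pods and 0 lower, where 41.5% of all 22805 tested genes were called, 20.4% of them higher and 21.2% lower. A call means an adjusted p under 0.05 in edgeR's quasi-likelihood test. At 18 DAF, 4 of 8 were called higher and 0 lower, where 15% of all genes were called, 7.99% higher and 6.99% lower. At 10 DAF the calls were split, 1 higher and 1 lower, where 32.6% of all genes were called, 17.1% higher and 15.5% lower. The median log2 fold change, golden over green, of the 8 genes was -0.063, 0.58 and 0.63 at 10, 14 and 18 DAF, against 0.017, -0.0095 and -0.017 over all tested genes. None of the 8 was lower at an unadjusted p under 0.05 at 14 or 18 DAF, and DESeq2 and limma gave 0 lower as well.

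GluTR Phvul.008G185100 had the highest mean level of the GluTR genes in each of the 6 groups. Its golden libraries stood at 98.2, 88.1 and 94.5 FPKM at 10 DAF, 75.1, 89.0 and 83.1 at 14 DAF and 77.1, 128 and 88.4 at 18 DAF. The green libraries stood at 62.2, 56.1 and 56.5 FPKM at 10 DAF, 23.5, 28.2 and 40.1 at 14 DAF and 25.8, 33.6 and 15.2 at 18 DAF. Every golden library lay above every green library of any age. The gene was 1.61-fold higher in golden pods at 10 DAF (log2 0.69, SE 0.25, adjusted p = 0.047), 2.68-fold at 14 DAF (log2 1.42, SE 0.25, adjusted p = 0.00074) and 4.36-fold at 18 DAF (log2 2.13, SE 0.26, adjusted p = 0.00011). The call at 10 DAF ended without any one of its 6 libraries (adjusted p 0.071 to 0.137), while those at 14 and 18 DAF held without each library in turn.

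The other GluTR genes did not share that pattern. Phvul.009G146100 had 17.4, 15.0 and 16.6 FPKM in golden pods at 10 DAF, 19.9, 18.1 and 18.1 at 14 DAF and 19.2, 18.7 and 22.1 at 18 DAF. Green libraries had 13.6, 14.2 and 13.7 FPKM at 10 DAF, 11.5, 15.8 and 14.1 at 14 DAF and 28.4, 17.3 and 18.8 at 18 DAF. Golden and green libraries of this gene overlapped at 18 DAF and not at the younger ages. It was called at 14 DAF only among the line comparisons (log2 0.42, SE 0.16, adjusted p = 0.047), and that call ended without golden replicate 1, 2 or 3 or green replicate 1 or 3 (adjusted p 0.075 to 0.159). At 18 DAF its log2 fold change was 0.01, with a 95% interval of -0.33 to 0.35. Phvul.002G216100 was the lowest of the 8 genes, at 2.28 to 13.9 FPKM in golden libraries and 3.02 to 12.3 FPKM in green libraries. Its line comparisons were not called, with log2 fold changes of -0.75, 0.29 and 0.18 at 10, 14 and 18 DAF and SEs of 0.47, 0.47 and 0.46.

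GSA-AM Phvul.009G118500 is the single aminomutase gene here. It had 82.2, 71.2 and 70.7 FPKM in golden pods at 10 DAF, 69.8, 88.9 and 103 at 14 DAF and 53.0, 86.2 and 57.6 at 18 DAF. In green pods it had 78.7, 94.9 and 99.8 FPKM at 10 DAF, 61.1, 47.3 and 51.4 at 14 DAF and 43.9, 52.9 and 44.1 at 18 DAF. The lines overlapped at 10 DAF, and golden libraries lay above green ones at 14 and 18 DAF. The gene was 1.61-fold higher in golden pods at 14 DAF (log2 0.69, SE 0.21, adjusted p = 0.017), a call that ended without golden replicate 3 or green replicate 2 or 3 (adjusted p 0.064 to 0.068). At 18 DAF the log2 fold change of 0.62 (SE 0.21) missed the threshold (adjusted p = 0.056), and DESeq2 called it (adjusted p = 0.024).

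UROS Phvul.009G063100 had 54.5, 48.7 and 52.5 FPKM in golden pods at 10 DAF, 39.0, 49.4 and 54.5 at 14 DAF and 28.3, 54.1 and 36.3 at 18 DAF. In green pods it had 49.7, 38.9 and 48.0 FPKM at 10 DAF, 32.4, 30.3 and 29.6 at 14 DAF and 22.4, 28.4 and 25.3 at 18 DAF. The lines overlapped at 10 DAF and, narrowly, at 18 DAF. The gene was 1.53-fold higher in golden pods at 14 DAF (log2 0.61, SE 0.21, adjusted p = 0.033) and 1.72-fold at 18 DAF (log2 0.78, SE 0.21, adjusted p = 0.024). Neither call held in every omission. At 14 DAF it ended without golden replicate 2 or 3 or green replicate 2 or 3 (adjusted p 0.082 to 0.112), and at 18 DAF without golden replicate 2 or green replicate 1 or 3 (adjusted p 0.061 to 0.102). Golden replicate 2 at 18 DAF was the highest of its group in GluTR Phvul.008G185100, GSA-AM, UROS, both UROD genes and CPOX.

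The UROD genes differed from each other as well, Phvul.001G248800 being higher in golden pods at 14 and 18 DAF and Phvul.005G065500 lower in golden pods at 10 DAF. Phvul.001G248800 had 67.5, 50.8 and 53.9 FPKM in golden pods at 10 DAF, 49.6, 47.9 and 61.6 at 14 DAF and 31.9, 44.8 and 39.1 at 18 DAF. Green libraries had 59.1, 56.1 and 62.3 FPKM at 10 DAF, 35.4, 29.8 and 31.8 at 14 DAF and 27.6, 27.9 and 26.1 at 18 DAF. The lines overlapped at 10 DAF and separated at 14 and 18 DAF. It was 1.62-fold higher in golden pods at 14 DAF (log2 0.69, SE 0.16, adjusted p = 0.0036) and 1.55-fold at 18 DAF (log2 0.63, SE 0.16, adjusted p = 0.016), where the call ended without golden replicate 2 or green replicate 3 (adjusted p 0.051 to 0.063). Phvul.005G065500 had 21.0, 18.1 and 18.3 FPKM in golden pods at 10 DAF, 14.3, 17.6 and 22.5 at 14 DAF and 14.3, 17.7 and 16.8 at 18 DAF. Green libraries had 33.3, 36.5 and 38.8 FPKM at 10 DAF, 22.0, 16.4 and 17.4 at 14 DAF and 13.9, 14.8 and 14.8 at 18 DAF. Green libraries lay well above golden ones at 10 DAF and overlapped them later. The gene was lower in golden pods at 10 DAF (log2 -0.91, SE 0.18, adjusted p = 0.0015) and was not called at 14 DAF (log2 -0.06, SE 0.17) or 18 DAF (log2 0.29, SE 0.17).

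CPOX Phvul.008G289900, the last of the 5 enzymes, had 69.8, 64.0 and 62.5 FPKM in golden pods at 10 DAF, 53.7, 57.9 and 77.2 at 14 DAF and 61.5, 69.4 and 54.9 at 18 DAF. In green pods it had 70.3, 68.2 and 71.7 FPKM at 10 DAF, 44.6, 43.8 and 39.5 at 14 DAF and 33.6, 44.2 and 34.8 at 18 DAF. The lines overlapped at 10 DAF and were apart at 14 and 18 DAF. Golden pods were 1.46-fold higher at 14 DAF (log2 0.54, SE 0.16, adjusted p = 0.015) and 1.82-fold at 18 DAF (log2 0.86, SE 0.16, adjusted p = 0.0028). The call at 14 DAF ended without golden replicate 3 or green replicate 3 (adjusted p 0.068 to 0.081).

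**Figure D1:**
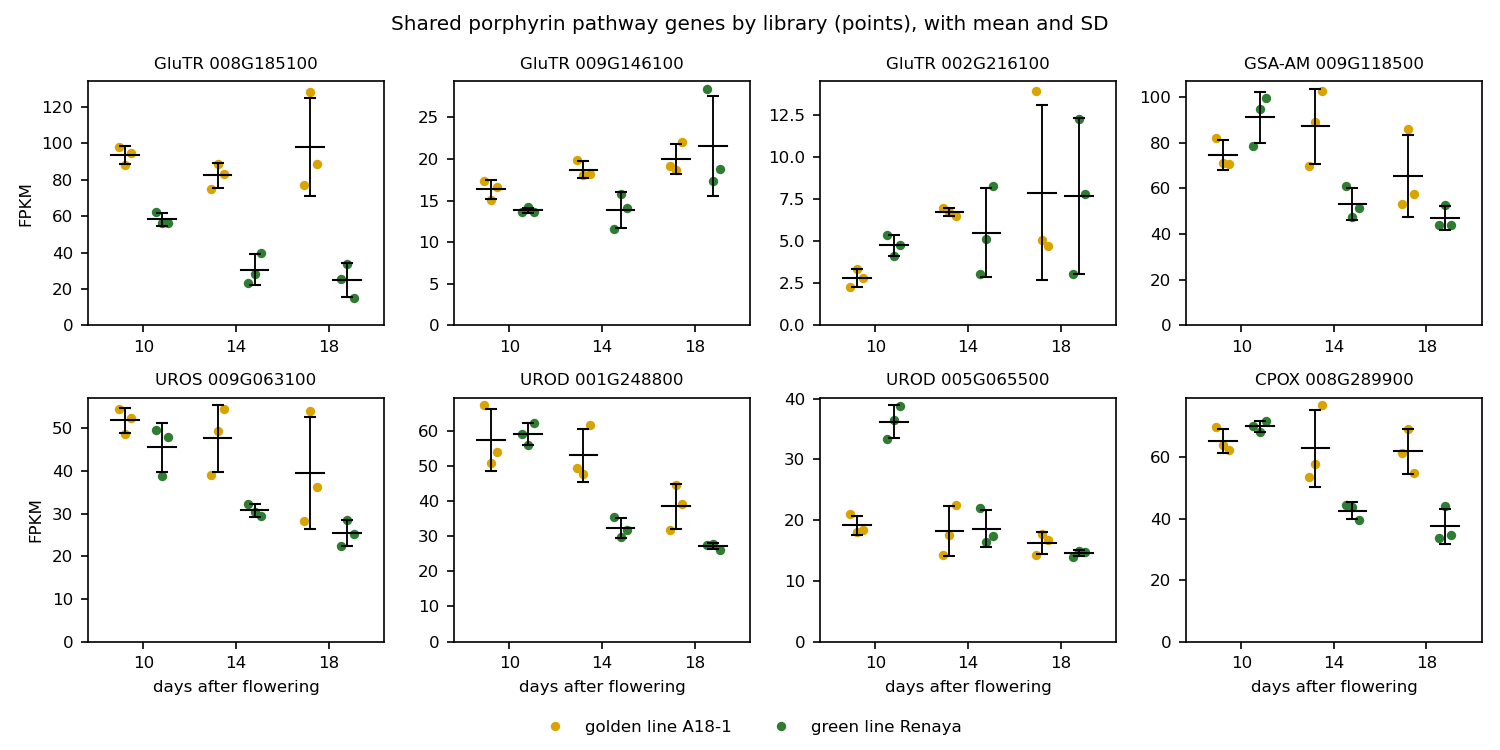
Level in FPKM (vertical axis, from 0) of each of the 8 genes at 10, 14 and 18 days after flowering, with a point per library, gold for line A18-1 and green for line Renaya, and bars for the mean and SD of 3 libraries. GluTR 008G185100 lies higher in every golden library than in any green one, while UROD 005G065500 is highest in green pods at 10 days.

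**Figure D2:**
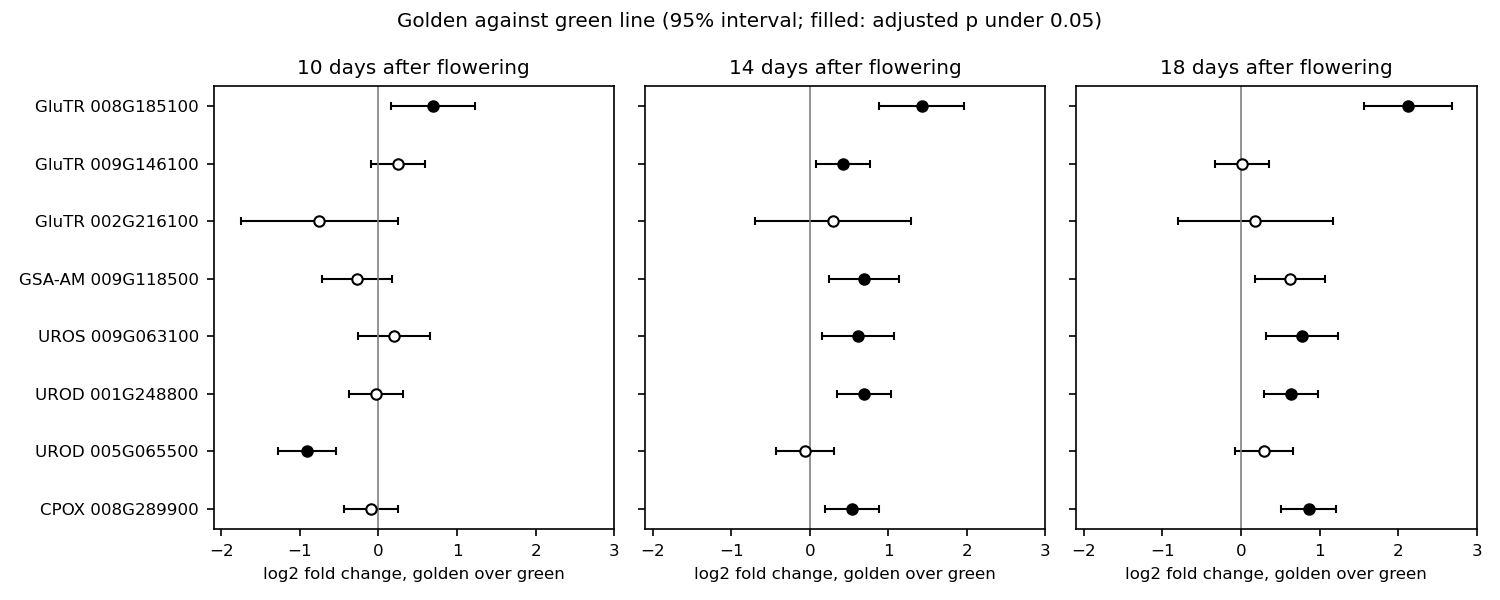
Log2 fold change of golden over green (horizontal axis) for each gene in one panel per age, with 95% intervals and filled points for an adjusted p under 0.05. Of the 8 genes, 2 are filled at 10 days, 1 on either side of 0, and 6 at 14 days and 4 at 18 days are filled, all to the right of 0.

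Counts of calls moved with single libraries. The 2 calls at 10 DAF became 1, that of UROD Phvul.005G065500, without any one of the 6 libraries at that age. The 6 at 14 DAF became 2 without golden replicate 3 or green replicate 3, and the 4 at 18 DAF became 2 without golden replicate 2 or green replicate 3. Over all genes, the 7443 calls at 10 DAF became 4767 to 6062 on omission of 1 library. The 9474 at 14 DAF became 9336 and 8122 without golden replicate 3 or green replicate 3. The 3416 at 18 DAF became 2895 and 2422 without golden replicate 2 or green replicate 3. With the spread estimated from the 6 libraries at 18 DAF alone, 1 of the 4 calls was left, that of GluTR Phvul.008G185100. Calls over all genes fell as well under that setting, from 3416 of 22805 to 628 of 21247.

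Most of the 8 genes fell with age in green pods. In green pods at 18 DAF relative to 10 DAF, 6 of 8 were lower and 1 was higher, where 34.9% of all genes were called, 15.6% lower and 19.3% higher. The median log2 fold change was -0.87 for the 8 genes and 0.017 for all tested genes. UROD Phvul.005G065500 fell most, to 14.5 ± 0.495 FPKM at 18 DAF against 36.2 ± 2.73 FPKM at 10 DAF (log2 -1.25, SE 0.18, adjusted p = 0.00017), and GluTR Phvul.008G185100 fell to 24.9 ± 9.20 against 58.3 ± 3.43 FPKM (log2 -1.18, SE 0.25, adjusted p = 0.0028). The 18 DAF and 10 DAF libraries of the 7 called genes did not overlap. Since the calls came from these same libraries, that adds no support to them, and the share of all genes without overlap was not counted. The falls of UROD Phvul.001G248800 (log2 -1.06), GSA-AM (log2 -0.90), CPOX (log2 -0.84) and UROS (log2 -0.79) had adjusted p of 0.00029, 0.0046, 0.0013 and 0.011. That of UROS ended without green 18 DAF replicate 1 (adjusted p = 0.051).

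The 1 gene called higher with age in green pods was GluTR Phvul.009G146100. It stood at 21.5 ± 6.03 FPKM at 18 DAF against 13.8 ± 0.317 FPKM at 10 DAF (log2 0.70, SE 0.16, adjusted p = 0.0040). It also rose between 14 and 18 DAF (log2 0.70, SE 0.16, adjusted p = 0.022), the 1 call of the 8 genes in that interval, where 6.95% of all genes were called, 3.95% higher. The second call ended without green 14 DAF replicate 1 or 3 or green 18 DAF replicate 1 (adjusted p 0.076 to 0.092). The rise was not shown to be particular to green pods. In golden pods the same gene gave 0.47 for 18 against 10 DAF (SE 0.16, adjusted p = 0.051). The golden change minus the green change was not called (log2 -0.24, SE 0.23, adjusted p = 0.54).

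Most of the fall in green pods lay between 10 and 14 DAF. At 14 DAF relative to 10 DAF, 5 of 8 were lower and 0 higher, where 8.27% of all genes were called, 3.19% lower and 5.09% higher, and 0 were higher at an unadjusted p under 0.05 or in DESeq2 or limma. The log2 fold changes of the 5 ran from -0.94 for UROD Phvul.005G065500 (SE 0.18) to -0.70 for CPOX (SE 0.16, adjusted p = 0.018). UROS was not called, at a log2 fold change of -0.55 (SE 0.21, adjusted p = 0.13), nor were GluTR Phvul.009G146100 (log2 0.00, SE 0.16) and Phvul.002G216100 (log2 0.19, SE 0.47). Both UROD calls (adjusted p = 0.0078 for Phvul.001G248800 and 0.0076 for Phvul.005G065500) held without each library in turn. The count became 2 without green 10 DAF replicate 1 or 3 or green 14 DAF replicate 2, and 3 without green 10 DAF replicate 2 or green 14 DAF replicate 3. In the same order, the 1887 calls over all genes became 707, 459 and 403, and 769 and 751. Adjusted p rose to at most 0.146 for GluTR Phvul.008G185100, 0.170 for GSA-AM and 0.077 for CPOX.

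Calls with age were few among these genes in golden pods, and not far from the shares over all genes. At 18 DAF relative to 10 DAF 1 of 8 was called, GluTR Phvul.002G216100, which rose, where 20.7% of all genes were called, 11.3% higher. It had 13.9, 5.04 and 4.72 FPKM at 18 DAF against 2.28, 3.34 and 2.80 FPKM at 10 DAF (log2 1.68, SE 0.48, adjusted p = 0.023). The ages did not overlap, and 1 library at 18 DAF, replicate 1, was far above the other two. Without that library the log2 fold change was 0.97 (adjusted p = 0.139). It was also not called without golden 10 DAF replicate 1, 2 or 3 (adjusted p from 0.054), and limma on log2(FPKM + 1) did not call it either (log2 1.08, adjusted p = 0.075), nor did edgeR with the compared groups alone (adjusted p = 0.062). Without golden 18 DAF replicate 2 it was called, and so were falls of UROS (log2 -0.55, adjusted p = 0.035) and UROD Phvul.001G248800 (log2 -0.56, adjusted p = 0.025). The median log2 fold change of the 8 genes was 0.058 and that of all tested genes 0.010. At an unadjusted p under 0.05 in edgeR's test, 3 of the 8 passed. GluTR Phvul.008G185100 gave 0.26 (SE 0.25, adjusted p = 0.50), with a 95% interval of -0.28 to 0.79, and CPOX 0.11 (SE 0.16), with an interval of -0.23 to 0.45. UROD Phvul.001G248800 gave -0.39 (SE 0.16, adjusted p = 0.098), a fall that limma on log2(FPKM + 1) called (log2 -0.56, adjusted p = 0.010). Limma took FPKM without the TMM scaling of edgeR's test. The TMM factors were 0.909, 0.855 and 0.978 in golden pods at 18 DAF and 1.02, 1.03 and 1.02 at 10 DAF. The part of scaling in the limma values was not tested. GluTR Phvul.009G146100 gave 0.47 (SE 0.16, adjusted p = 0.051), with an interval of 0.13 to 0.81, and 2 of 15 alternatives called this rise.

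Neither shorter interval gave a call in golden pods. Between 10 and 14 DAF 0 of 8 were called by edgeR, DESeq2 or limma, where 1.3% of all genes were called, and 1 passed an unadjusted p under 0.05. Between 14 and 18 DAF 0 of 8 were called by edgeR or DESeq2, where edgeR called 10.6% of all genes, and 0 passed an unadjusted p under 0.05. Limma called 1 lower, UROD Phvul.001G248800, where limma on log2(FPKM + 1) called 2908 of all 22805 genes.

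**Figure D3:**
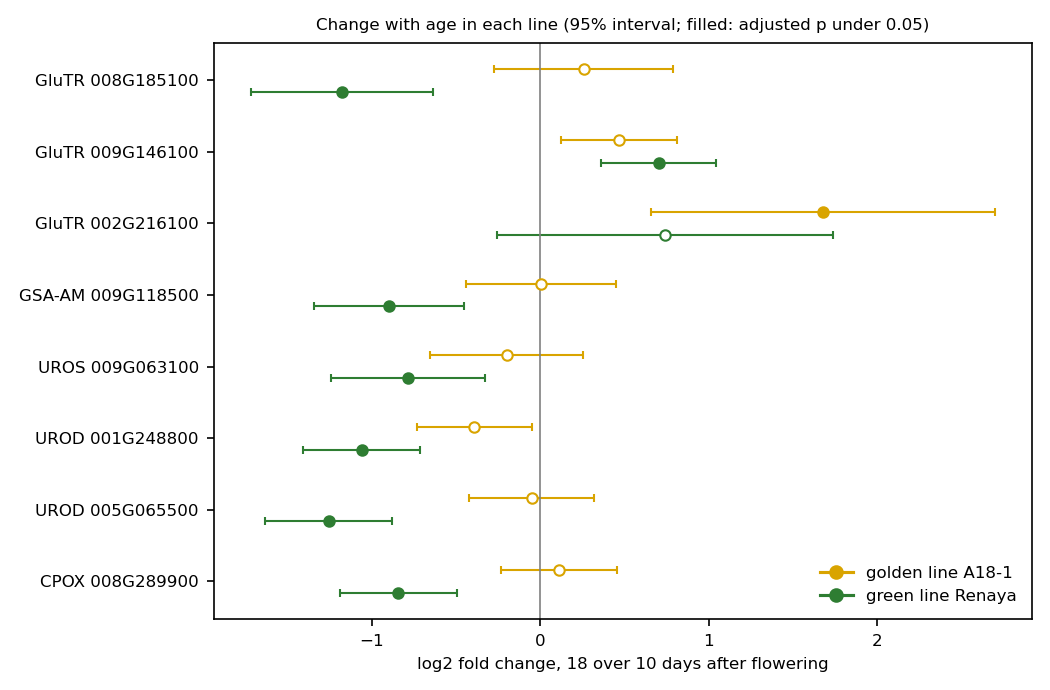
Log2 fold change of 18 over 10 days after flowering (horizontal axis) for each of the 8 genes, gold for line A18-1 and green for line Renaya, with 95% intervals and filled points for an adjusted p under 0.05. In green pods 6 genes are filled to the left of 0 and GluTR 009G146100 to the right, and in golden pods GluTR 002G216100 alone is filled.

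The difference between the lines in that change with age was tested as an interaction, the golden change minus the green change. For 18 against 10 DAF it was called for 3 of 8 genes, all positive, where 9.9% of all genes were called, 3.77% positive. These were GluTR Phvul.008G185100 (log2 1.43, SE 0.35, adjusted p = 0.022), UROD Phvul.005G065500 (log2 1.20, SE 0.25, adjusted p = 0.0083) and CPOX Phvul.008G289900 (log2 0.95, SE 0.23, adjusted p = 0.019). The median over the 8 genes was 0.92, and over all tested genes -0.00020. For GluTR the golden change was 0.26 and the green change -1.18, for UROD -0.05 and -1.25, and for CPOX 0.11 and -0.84. GSA-AM (log2 0.90, SE 0.29, adjusted p = 0.065) and UROD Phvul.001G248800 (log2 0.67, SE 0.23, adjusted p = 0.074) missed the threshold and were called by DESeq2 (adjusted p = 0.019 and 0.024). The call of UROD Phvul.005G065500 held without each library in turn. That of GluTR Phvul.008G185100 ended without golden 10 DAF replicate 2 (adjusted p = 0.053) and that of CPOX without golden 10 DAF replicate 3 (adjusted p = 0.050). The count was 2 without golden 10 DAF replicate 2 or 3, where the 2258 calls over all genes became 1397 and 1220.

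For 14 against 10 DAF the interaction was called for 0 of 8 genes, where 1.15% of all genes were called. At an unadjusted p under 0.05, 4 passed. DESeq2 called 3, GSA-AM and both UROD genes, limma called 0, and edgeR with the compared groups alone called 1, GSA-AM. Over all genes, DESeq2 called 1230 of 22805, limma on log2(FPKM + 1) 607 of 22805 and the compared groups alone 1184 of 22409. For 18 against 14 DAF it was called for 0 of 8 by edgeR, DESeq2 or limma, where 7.38% of all genes were called, and 0 passed an unadjusted p under 0.05.

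Where an enzyme had several genes, the lines drew on the copies in different proportion. GluTR Phvul.008G185100 made up 83.0 ± 0.302%, 76.4 ± 2.38% and 77.0 ± 7.21% of the summed GluTR level in FPKM in golden pods at 10, 14 and 18 DAF. In green pods it made up 75.8 ± 0.698%, 61.1 ± 3.44% and 44.9 ± 8.38%. Its ratio to Phvul.009G146100 averaged 5.74, 4.43 and 4.96 in golden pods and 4.22, 2.22 and 1.22 in green pods, and golden libraries lay above green ones at each age. UROD Phvul.001G248800 was the major copy throughout, at 2.99, 2.97 and 2.36 times Phvul.005G065500 in golden pods and 1.64, 1.75 and 1.88 times in green pods, with no overlap at any age.

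The 2 within-library ratios are described with no test, since they were chosen after the values had been seen. For the same reason, the separation of the lines in these ratios adds no support. Averaged over the 3 ages, the mean log2 ratio was higher in golden pods by 1.19 for GluTR and by 0.65 for UROD. By age the GluTR difference was 0.45, 1.02 and 2.09 at 10, 14 and 18 DAF and the UROD difference 0.87, 0.76 and 0.33. A ratio shows an unequal change and not which copy changed, and reads of similar copies may have been divided between them by the counting.

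**Figure D4:**
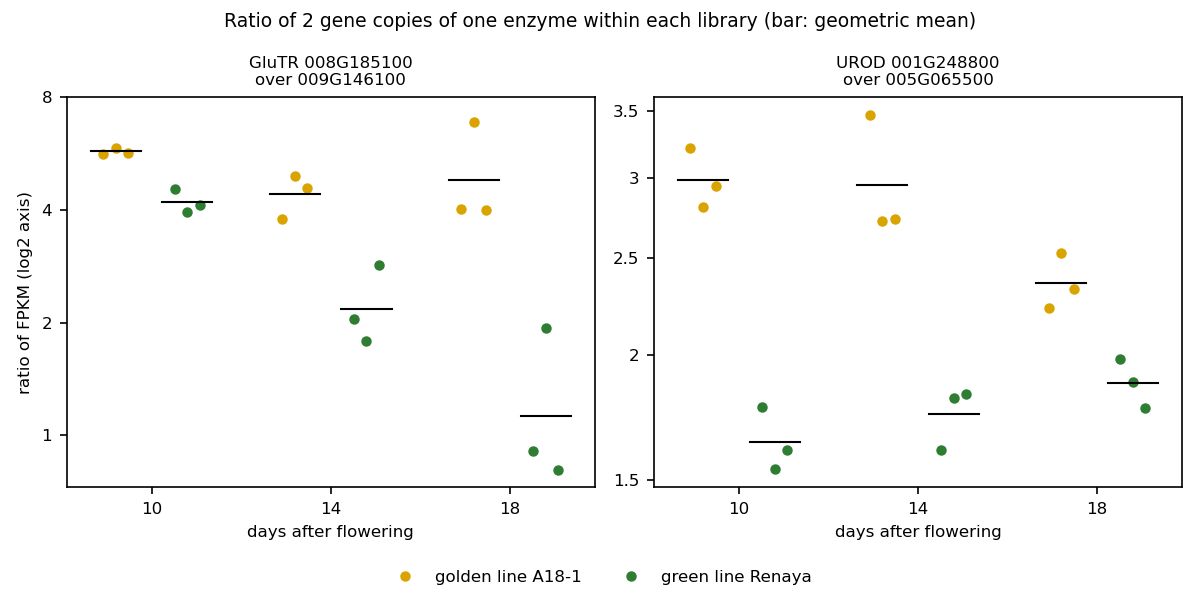
Ratio of the FPKM of a pair of genes for the same enzyme within each library (vertical axis, log2 spaced) at 10, 14 and 18 days after flowering, gold for line A18-1 and green for line Renaya, with bars for the geometric mean of 3 libraries. Golden points lie above green points in both panels at each age, furthest for GluTR at 18 days.

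Summed over the genes of an enzyme, GluTR genes reached 113 ± 5.75, 108 ± 5.92 and 126 ± 22.9 FPKM in golden pods at 10, 14 and 18 DAF, against 76.9 ± 3.79, 49.9 ± 12.2 and 54.1 ± 11.01 FPKM in green pods. UROD genes together reached 76.5 ± 10.5, 71.2 ± 11.2 and 54.8 ± 8.23 FPKM in golden pods, against 95.4 ± 4.92, 50.9 ± 5.82 and 41.7 ± 0.915 FPKM in green pods. The mean GluTR sum was higher in golden pods at each age, while the mean UROD sum was higher in green pods at 10 DAF and in golden pods later. These sums are descriptions and were not tested.

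Within golden pods the order of levels began with GluTR Phvul.008G185100 and GSA-AM at each age, with CPOX next. At 10 DAF GluTR (93.6 ± 5.10 FPKM), GSA-AM (74.7 ± 6.50 FPKM) and CPOX (65.4 ± 3.88 FPKM) did not overlap with each other. At 14 and 18 DAF neighbours among these genes did. In green pods at 10 DAF the order began with GSA-AM (91.1 ± 11.1 FPKM) and CPOX (70.1 ± 1.74 FPKM), which did not overlap, and the leading GluTR gene came after UROD Phvul.001G248800, which it overlapped. In green pods at 18 DAF GSA-AM (47.0 ± 5.17 FPKM) and CPOX (37.5 ± 5.78 FPKM) overlapped and led. Below them UROD Phvul.001G248800, UROS, GluTR Phvul.008G185100 and GluTR Phvul.009G146100 each overlapped with the next. GluTR Phvul.002G216100 was last in all 6 groups.

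Across the 18 libraries, levels of the 8 genes on the log2(FPKM + 1) scale ranged widely in likeness, given here as Pearson's r with no test, since libraries share line and age. The closest pair was GSA-AM and UROD Phvul.001G248800 (r = 0.914), followed by UROS and UROD Phvul.001G248800 (r = 0.912). The pair furthest apart was GluTR Phvul.009G146100 and UROD Phvul.005G065500 (r = -0.632).

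Over 14386 genes with a mean of at least 5 FPKM, the 3 most like GluTR Phvul.008G185100 were Phvul.001G132200 (r = 0.972), Phvul.003G189600 (r = 0.970) and Phvul.011G054500 (r = 0.964). The first is annotated as the H subunit of magnesium chelatase, the second as a pyridine nucleotide-disulphide oxidoreductase and the third as an enzyme or tetrapyrrole binding protein. For GSA-AM the closest gene was a plastid ribosomal protein of the L11 family, Phvul.006G007380 (r = 0.974), and for CPOX a ribosomal protein of the S9 family, Phvul.001G017500 (r = 0.955). UROS lay closest to the NADPH-dependent thioredoxin reductase Phvul.007G251800 (r = 0.963), UROD Phvul.001G248800 to the ribonuclease III family gene Phvul.002G012600 (r = 0.971) and UROD Phvul.005G065500 to the rotamase Phvul.001G219400 (r = 0.963). For GluTR Phvul.009G146100 it was glucose-6-phosphate dehydrogenase 6, Phvul.008G148700 (r = 0.912), and for GluTR Phvul.002G216100 a gene with no description, Phvul.007G035100 (r = 0.908).

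Of the other genes of the pathway found by description, 26 in all and all tested, 6, 15 and 12 were higher in golden pods at 10, 14 and 18 DAF and 2, 1 and 2 were lower. Over all tested genes 17.1%, 20.4% and 7.99% were higher and 15.5%, 21.2% and 6.99% lower. The median log2 fold changes of the 26 were 0.27, 0.55 and 0.58, against 0.017, -0.0095 and -0.017 over all tested genes. In green pods at 18 DAF relative to 10 DAF, 3 of the 26 were higher and 8 lower, where 19.3% of all genes were higher and 15.6% lower. The interaction of 18 against 10 DAF was positive for 7 and negative for 2, where 9.9% of all genes were called, 3.77% positive. The list also took in genes that the table's KEGG annotation alone assigns to porphyrin metabolism, 128 genes of which 114 were tested, with 22, 37 and 12 higher and 11, 15 and 11 lower in golden pods at the 3 ages, to be read against the same shares of all genes. Their median log2 fold changes were 0.32, 0.56 and -0.18. Of the 128, 80 are described as MYB, homeodomain or GDSL lipase genes, which are transcription factors and lipid-cleaving enzymes and not known enzymes of this route.

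The rule for naming other pathway genes took the largest line differences at 14 DAF among those called in at least 2 line comparisons. Large fold changes and low adjusted p between the lines follow from that choice and add no support. Among the 8 so named was Phvul.007G252700, a second gene for the H subunit of magnesium chelatase, the entry to the chlorophyll branch. It stood at 51.6 ± 16.3, 83.0 ± 30.6 and 67.7 ± 39.4 FPKM in golden pods at 10, 14 and 18 DAF against 9.89 ± 0.296, 11.4 ± 8.11 and 9.28 ± 5.36 FPKM in green pods, and was 5.25-fold, 7.34-fold and 8.18-fold higher (adjusted p = 0.0040, 0.0011 and 0.0021). The interaction of that gene for 18 against 10 DAF was not called (log2 0.64, SE 0.72). Phvul.004G112501, annotated with the enzyme number of protochlorophyllide reductase, was listed at 0 in all golden libraries and had group means of at most 0.427 FPKM in green pods. The other 6, like that gene, came from the KEGG annotation alone. They were 4 MYB genes (Phvul.002G317000, Phvul.003G132100, Phvul.004G116500 and Phvul.007G028700), the GDSL lipase gene Phvul.005G001200 and the homeodomain gene Phvul.009G183800, with group means between 0 and 31.9 FPKM.

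Porphobilinogen synthase and protoporphyrinogen oxidase, which the 8 genes leave out, were followed by enzyme number, chosen after their values had been seen. Porphobilinogen synthase Phvul.009G127100 stood at 70.9 ± 9.76, 68.3 ± 8.93 and 50.7 ± 19.1 FPKM in golden pods at 10, 14 and 18 DAF against 66.0 ± 4.81, 37.3 ± 2.11 and 38.3 ± 1.46 FPKM in green pods. It was higher in golden pods at 14 DAF (log2 0.86, SE 0.22, adjusted p = 0.0065) and not called at 10 DAF (log2 0.11) or 18 DAF (log2 0.55, adjusted p = 0.11), and it fell in green pods between 10 and 18 DAF (log2 -0.73, adjusted p = 0.019). Of 3 genes annotated as protoporphyrinogen oxidase, which completes protoporphyrin, Phvul.001G095800 was higher in golden pods at 10 DAF (log2 0.41, adjusted p = 0.014) and 14 DAF (log2 0.39, adjusted p = 0.016). Phvul.005G055100 was lower in golden pods at 14 DAF (log2 -0.68, adjusted p = 0.034) and 18 DAF (log2 -1.36, adjusted p = 0.0019). Phvul.007G208700 was called in no line comparison and fell in green pods between 10 and 18 DAF (log2 -1.30, adjusted p = 0.00046).

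Genes for seed tissue that may travel with a pod wall were matched by words such as late embryogenesis, oleosin, cupin and seed storage. These words also match broad families, such as lipid-transfer proteins and RmlC-like cupins, so the list does not measure seed tissue alone. It held 177 genes, of which 133 were tested. Of these 18, 18 and 8 were higher in golden pods at 10, 14 and 18 DAF and 12, 32 and 5 were lower, where 17.1%, 20.4% and 7.99% of all tested genes were higher and 15.5%, 21.2% and 6.99% lower. Their median log2 fold changes were -0.30, -0.58 and -0.063. Their summed level ran from 11973 to 13204, 7933 to 8891 and 6027 to 9822 FPKM in golden libraries at the 3 ages, against 6677 to 7311, 9710 to 11937 and 6452 to 8573 FPKM in green libraries. At 0 in all 3 libraries were 41, 33 and 44 of the 177 in golden pods and 21, 30 and 29 in green pods. Of the 6 with the highest mean level, 3 had a higher mean in golden pods at 10 DAF and 3 a lower one. Phvul.008G008200 gave 6803 ± 402 FPKM in golden pods at that age against 993 ± 349 FPKM in green pods, while Phvul.001G050300 gave 549 ± 112 FPKM in golden pods against 1028 ± 89.2 FPKM in green pods. Both are described as members of a superfamily of bifunctional inhibitor, lipid-transfer and seed storage 2S albumin proteins. Of the 4 oleosin genes, Phvul.008G144500 was found in every library, at 2.44 to 76.6 FPKM with a median of 13.4 FPKM. Oleosin 1 (Phvul.007G138300) was at 0 in 10 of 18 libraries and reached at most 5.59 FPKM, and the other two were at 0 in 4 libraries each and reached at most 2.81 and 0.551 FPKM. The part of seed tissue in the differences of the 8 genes was not tested.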

How the data were processed

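Paired-end sequencing of poly(A) RNA gave 18 libraries, per the labels' protocols. Per the file headers, the authors' single table holds estimated counts, and FPKM scaled by the authors, of every gene in every library. None of the deposited estimated counts needed rounding, with 0 values not whole. Aligner, counting program and genome build were not given in the sources used here, and neither was strand, so antisense and overlapping genes could not be told apart. The 8 genes had no coordinates in the table. The table holds 635 assembled loci with no gene name, with 2.20% to 3.97% of a library's counts, which were kept.

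The test was edgeR's quasi-likelihood test (edgeR 4.0.16, R 4.3.3). After its expression filter 22805 genes remained and 2319 did not. With TMM scaling, 1 model with a mean for each of the 6 groups was fitted to all 18 libraries (common dispersion 0.155, 12 residual degrees of freedom). P-values were two-sided and adjusted by the Benjamini-Hochberg method over all tested genes, with calls at an adjusted p under 0.05. Alternatives were DESeq2 1.42.0 with its size factors, edgeR with RLE scaling, with no filter, with at least 1 FPKM in 3 libraries, with the compared groups alone or with a replicate block, limma 3.58.1 on log2(FPKM + 1) and log2(FPKM + 0.1), omission of each library, and, added after seeing the data, omission of the unnamed loci. The limma runs took the authors' FPKM as given, with no TMM scaling. The edgeR test was also run on simulated data for golden against green at 14 DAF over 22805 genes. It recovered 64 of 100 genes changed 4-fold and 2 of 100 changed 2-fold. The simulation changed 200 genes, while 9474 of 22805 were called in the real data at 14 DAF. It also gave every gene the same dispersion, near the common one, while SEs of the genes described here ran from 0.16 to 0.47 at 14 DAF. The simulated shares therefore do not give the chance of a call for these genes. Real calls at 14 DAF included GluTR Phvul.009G146100 at 1.34-fold (SE of log2 0.16) and UROD Phvul.001G248800 at 1.62-fold (SE 0.16). GluTR Phvul.002G216100 at 1.22-fold (SE 0.47) and UROD Phvul.005G065500 at 0.96-fold (SE 0.17) were not called.

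The genes and all lists were chosen with earlier results of these data known, and 2 of the 10 listed genes are not reported here. Other pathway genes came from descriptions and KEGG annotation, and the at most 8 with the largest line difference at 14 DAF among those called in at least 2 line comparisons are named, with the most similar genes by Pearson's r. The design text calls the replicates independent biological repeats. No 2 replicates were a repeated library, since the smallest chi-square between them was 51.3 per gene.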

Additional observations from a re-analysis of the deposited data

Results flagged for a closer look

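Between the lines, 3 of the 8 genes differed in their change between 10 and 18 DAF by the interaction test itself, golden change minus green change. GluTR Phvul.008G185100 differed by 1.43 on the log2 scale, UROD Phvul.005G065500 by 1.20 and CPOX Phvul.008G289900 by 0.95, with edgeR adjusted p of 0.022, 0.0083 and 0.019. In each of the 3 the green change was a called fall and the golden change was not called. With 3 libraries in a group, single libraries were not tested as outliers.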

How the results depend on the processing

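Replicate numbers did not pair the libraries. The correlation of same-numbered libraries' deviations from their group means ran from -0.213 to 0.180 over 45 pairs, and 0 of 15 pairs of groups had all of theirs over 0.1. With a replicate block the calls were 1 of 8 (against 2) at 10 DAF, 5 at 14 DAF and 4 at 18 DAF for golden against green, 1 in golden pods and 7 in green pods for 18 against 10 DAF, 3 (against 5) and 1 in green pods for 14 against 10 and 18 against 14 DAF, and 3 for the interaction of 18 against 10 DAF. In the same order, the block called 6867, 8812, 2838, 4002, 7311, 1373, 1035 and 1747 of all 22805 genes. RLE scaling and no filter also gave 1 at 10 DAF, where they called 7481 of 22805 and 7220 of 25124 of all genes. With the compared groups alone, calls were 1 for the lines at 18 DAF, 0 for golden pods at 18 against 10 DAF, 0 for green pods at 18 against 14 DAF and 1 for the interaction of 14 against 10 DAF. In the same order, that setting called 628 of 21247, 2741 of 21180, 91 of 21315 and 1184 of 22409 of all genes. DESeq2 gave 2 for golden pods at 18 against 10 DAF, 3 for the interaction of 14 against 10 DAF and 5 for that of 18 against 10 DAF, the filter of 1 FPKM gave 2 for golden pods at 18 against 10 DAF, and limma with either pseudocount gave 1 for golden pods at 18 against 14 DAF. In those comparisons DESeq2 called 6423, 1230 and 4039 of all 22805 genes. The filter of 1 FPKM called 4768 of 20395, and limma 2908 and 2905 of 22805 (pseudocounts 1 and 0.1). Omitting each library, calls ranged from 1 to 1, 2 to 5 and 2 to 5 for the lines at 10, 14 and 18 DAF. In golden pods they ranged from 0 to 0 at 14 against 10 DAF, 0 to 0 at 18 against 14 DAF and 0 to 3 at 18 against 10 DAF. In green pods they ranged from 2 to 4, 0 to 1 and 6 to 7, and for the interaction from 0 to 0, 0 to 0 and 2 to 3. Over all genes, calls on omission ranged from 4767 to 6062, 7217 to 9336 and 2422 to 3643 for the lines at 10, 14 and 18 DAF. At 18 against 10 DAF they ranged from 2726 to 5339 in golden pods and 5659 to 7244 in green pods. At 14 against 10 DAF they ranged from 403 to 2305 in green pods. The log2 ratio differences between the lines ranged from 1.10 to 1.32 for GluTR and 0.61 to 0.67 for UROD. Where one of these values moved the cause was not tested, except that omission leaves fewer libraries.

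Of 657 log2 fold changes of the 8 genes under other settings, 611 kept direction and side of the threshold, 16 lost a call, 13 gained one and 17 changed sign. Of 582 with a library omitted, 493 did, 49 lost a call, 4 gained one and 36 changed sign. No value that was called changed sign. The sign changes with limma (pseudocounts 1 and 0.1) were GluTR Phvul.009G146100 at 18 DAF (-0.074 and -0.076), GSA-AM in golden pods at 18 against 10 DAF (-0.21 and -0.22, and -0.012 with the replicate block), CPOX there (-0.082 and -0.084) and the UROS interaction of 18 against 14 DAF (-0.025 and -0.023). GluTR Phvul.009G146100 in green pods at 14 against 10 DAF gave -0.027 with RLE scaling, -0.028 with DESeq2, -0.014 with no filter, -0.012 and -0.013 with limma, -0.013 with the compared groups alone, -0.0084 without unnamed loci and -0.000847 with the filter of 1 FPKM.

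Sign changes on omission of a library, given as ranges over omissions, were as follows. Between the lines, UROD Phvul.001G248800 at 10 DAF ranged from -0.17 to 0.051, UROD Phvul.005G065500 at 14 DAF from -0.26 to 0.13, and at 18 DAF GluTR Phvul.009G146100 from -0.14 to 0.27 and GluTR Phvul.002G216100 from -0.52 to 0.65. In golden pods at 18 against 10 DAF, GluTR Phvul.008G185100 ranged from -0.044 to 0.40, GSA-AM from -0.30 to 0.14, UROD Phvul.005G065500 from -0.17 to 0.029 and CPOX from -0.029 to 0.23. In green pods at 14 against 10 DAF, GluTR Phvul.009G146100 ranged from -0.097 to 0.084 and Phvul.002G216100 from -0.21 to 0.46. The interaction of 18 against 14 DAF ranged from -0.81 to 0.36 for GluTR Phvul.002G216100, -0.36 to 0.085 for GSA-AM, -0.17 to 0.36 for UROS and -0.22 to 0.075 for UROD Phvul.001G248800. That of 18 against 10 DAF ranged from -0.39 to 0.025 for GluTR Phvul.009G146100. Precision was limited by 3 libraries per group.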
